A study of Mus musculus with 30 samples.

Results

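The line difference between C2C12-pMirn378 and C2C12-pMirn0 cells on the sixth day of BMP2 treatment (d6) was read from 6 of the 30 arrays of the study, 3 per line, chosen by their labels alone. C2C12 is a mouse myoblast line. C2C12-pMirn378 cells carried a lentiviral construct with the *miR-378* precursor, and C2C12-pMirn0 cells carried the parent vector without a miRNA insert. Both vectors also encoded copGFP, a green fluorescent protein for which the transduced cells of both lines had been sorted, so each line is 1 transduced population and not a set of clones. Both groups were plated 1 day before treatment and then kept for 6 days in low-serum differentiation medium with 300 ng/ml recombinant BMP2. The remaining 24 arrays covered the same lines before treatment (d0), after 3 days of BMP2 (d3), and on both later days in untreated cells. Each group held 3 repeats of an experiment with the same line, so the p-values measure the spread between such cultures and not between independent transductions.

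C2C12 myoblasts exit the cell cycle in low serum, switch on the myogenic regulators MyoD, myogenin and MEF2, and fuse into myotubes with sarcomeres. BMP2 signals through BMP receptors and Smad proteins, blocks this myogenic program and turns the cells towards osteoblasts, which express osterix (*Sp7*), alkaline phosphatase and a collagen-rich matrix. *miR-378* is a miRNA processed from an intron of *Ppargc1b*, a coactivator gene of mitochondrial metabolism, and is expressed in muscle. A mature miRNA pairs through its seed with target mRNAs and lowers their stability or translation. None of the gene symbols assigned to the probe sets was that of *miR-378*, so the arrays gave no measure of the miRNA itself.

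The unit was the deposited intensity per probe set, taken to log2, and an average expression value (AEV) is the linear mean ± SD of the 3 arrays. A probe set was called when the adjusted p of limma, Benjamini-Hochberg over all 45101 probe sets, was under 0.005 and the log2 ratio of C2C12-pMirn378 over C2C12-pMirn0 was above 0.6 or below -0.6. limma fits a linear model to each probe set and moderates the error of each with those of the others. Its spread came from all 10 groups, with 20 residual degrees of freedom. A probe set was dim when both group means of its log2 values lay under 6.26, the median of all values (76.46 on the linear scale). By this rule 22250 probe sets (49.3%) were dim. The median SD on the log2 scale was 0.118 in C2C12-pMirn378 and 0.101 in C2C12-pMirn0 arrays for probe sets above the median, against 0.584 and 0.565 for the others. The array medians were 70.36 to 76.53 in C2C12-pMirn378 and 73.92 to 75.75 in C2C12-pMirn0 cells. The ratio of 3′ to 5′ signal, a sign of RNA integrity, was 0.728 to 0.782 and 0.692 to 0.759 for *Gapdh*, and 1.17 to 1.22 and 1.23 to 1.32 for beta-actin.

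At d6 with BMP2, 448 probe sets (0.993% of those tested) were expressed at higher levels in C2C12-pMirn378 cells and 377 (0.836%) at lower levels. They carried 330 and 276 gene symbols. The 3 C2C12-pMirn378 arrays did not overlap with the 3 C2C12-pMirn0 arrays in 448 of the higher and 376 of the lower probe sets, which the limits of the call nearly fix, and over all probe sets they lay wholly above in 11.6% and wholly below in 13.3%. The median log2 ratio of all probe sets was -0.03, and among the calls 161 rises and 160 falls exceeded 1 on the log2 scale, 33 and 26 exceeded 2, and 14 and 4 exceeded 3. Of the calls, 17 of the higher and 34 of the lower probe sets were dim. When each of 18194 genes was read from its probe set with the highest mean, 281 genes (1.54%) were higher and 238 (1.31%) lower, and the arrays lay wholly above in 14.9% and wholly below in 15.5% of genes, called or not. These gene-level shares are the background for the counts of the lists that follow. The calls drew on the spread of all 30 arrays. With only the 6 arrays and 4 residual degrees of freedom, limma called 0 probe sets, the smallest adjusted p was 0.00552, 472 probe sets had an adjusted p under 0.05, and 7080 had an unadjusted p under 0.05, against 8345 in the fit of all arrays.

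**Figure D1:**
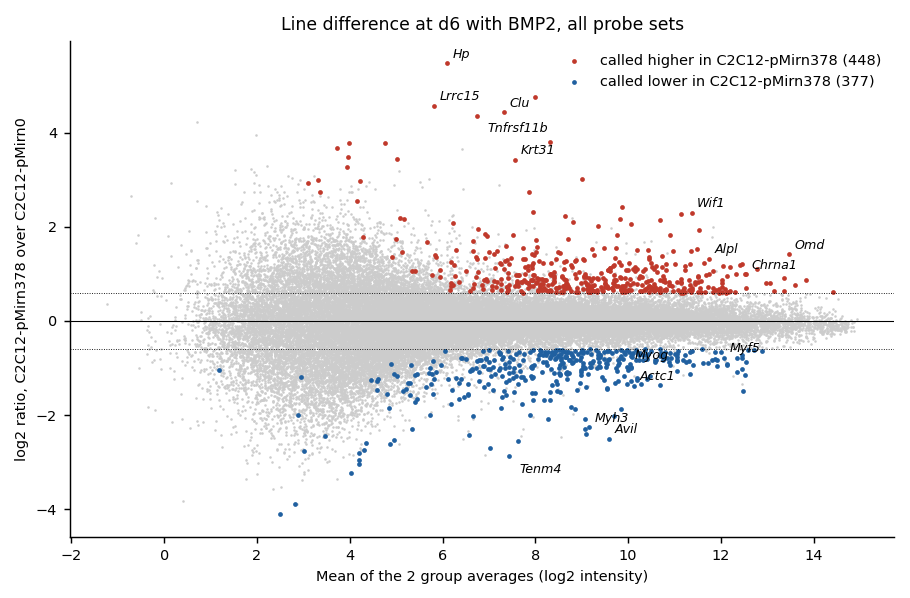
The log2 ratio of C2C12-pMirn378 over C2C12-pMirn0 at d6 with BMP2 (y axis) is plotted against the mean of both group averages (x axis, log2 intensity) for every probe set, with dotted lines at the fold limits of 0.6 and -0.6. The 448 probe sets called higher are in red and the 377 called lower in blue, and the uncalled values fan out below the median log2 level of 6.26.

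Of the 33 gene lists, that of the sarcomere, the contractile apparatus of muscle, held the most calls. Of 35 sarcomere genes measured, 31 of them not dim, 20 were expressed at lower levels in C2C12-pMirn378 cells and 0 at higher levels, and the median log2 ratio of the list was -0.88 against -0.02 for all genes. The falls reached heavy and light chains of myosin, both striated muscle actins and all 3 subunits of troponin. In bulk RNA, fewer myotube-like cells and less RNA per cell cannot be told apart.

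*Myh3*, the embryonic myosin heavy chain of forming myotubes, had intensities of 259.7, 308.5 and 225.8 in C2C12-pMirn378 arrays, against 1150, 1378 and 1247 in C2C12-pMirn0 arrays. All 3 values lay far under the lowest of the control line, and the log2 ratio was -2.26 ± 0.12 (SE, adjusted p = 2.31e-10, limma). *Myh7*, the slow and cardiac heavy chain, measured 140.5, 155.5 and 153.4 in C2C12-pMirn378 cells and 590.1, 705.6 and 601.4 in C2C12-pMirn0 cells. *Myl4*, the embryonic and atrial light chain, measured 101.5, 154.4 and 106.8 in C2C12-pMirn378 cells and 436.5, 539.9 and 458.3 in C2C12-pMirn0 cells. Both fell about as far as *Myh3*, with log2 ratios of -2.07 and -2.0. *Actc1*, the cardiac actin that embryonic skeletal muscle also uses, had AEVs of 698.5 ± 39.0 and 1816 ± 55.4 (n = 3 each). Its log2 ratio was -1.38 (adjusted p = 6.19e-09), and its 3 arrays in C2C12-pMirn378 cells (742.4, 685.4 and 667.7) lay close together.

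Other sarcomere genes fell less than *Myh3*. *Mybph*, a myosin-binding protein, averaged 459.2 and 1239, *Tnnt2*, a troponin that binds tropomyosin, 713.8 and 1478, and *Tnnc2*, the calcium sensor of fast fibers, 723.7 and 1415 in C2C12-pMirn378 and C2C12-pMirn0 cells. Their log2 ratios were -1.44, -1.05 and -0.97. *Acta1*, the adult skeletal actin, had AEVs of 4415 and 8097 (log2 ratio -0.88), and *Mylpf*, the fast regulatory light chain, had 4598, 4118 and 4158 in C2C12-pMirn378 arrays and 7461, 7339 and 7554 in C2C12-pMirn0 arrays (log2 ratio -0.80). *Myh8* and *Unc45b*, also called lower, were dim in both lines.

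Of the 15 sarcomere genes not called, *Des*, the intermediate filament that links myofibrils, had AEVs of 3159 ± 459 and 3143 ± 132, and *Tpm1*, a tropomyosin, 5797 and 5874. *Actn3*, the actinin of fast-fiber Z-discs, measured 2249, 2047 and 2329 in C2C12-pMirn378 arrays, against 1493, 1569 and 1639 in C2C12-pMirn0 arrays. These arrays did not overlap and the adjusted p was 0.00162, but the log2 ratio of 0.49 stayed under the fold limit. Outside the list, *Ckm*, muscle creatine kinase, had 79.67, 137.4 and 113 in C2C12-pMirn378 arrays and 123, 127 and 89.37 in C2C12-pMirn0 arrays, which overlap (log2 ratio -0.06). *Des* and *Myod1*, defining genes of myoblasts, were well above the median of all values in both lines.

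Promoters of muscle genes often hold CAGCTG, the E-box form that MyoD and myogenin bind well, and CArG boxes, the binding site of serum response factor. In the 250 bases before the transcription start (RefSeq, GRCm38.p6), CAGCTG was present in 6 of the 17 lower sarcomere genes with a promoter entry (35.3%), in 4 of the 10 uncalled ones (40.0%) and in 12.8% of all 27025 genes. A CArG box was present in 2 of 17 (11.8%), 2 of 10 (20%) and 1.4%. Motifs were searched on both strands, CAGCTG reads the same on each, and a match describes letters and not binding. The 120 bases before the start are given for 2 genes that fell, *Mylpf* (chr7:127211488-127211607, plus strand, CAGCTG at -51) and *Actc1* (chr2:114052876-114052995, minus strand, CArG box at -47), and for the muscle gene that rose, *Chrna1* (chr2:73580339-73580458, minus strand, CAGCTG at -92 and -44). Motifs are in capitals, each is written along its gene, and the last base is position -1.
Mylpf: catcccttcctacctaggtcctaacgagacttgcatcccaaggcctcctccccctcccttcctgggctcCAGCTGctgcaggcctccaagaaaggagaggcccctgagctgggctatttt
Actc1: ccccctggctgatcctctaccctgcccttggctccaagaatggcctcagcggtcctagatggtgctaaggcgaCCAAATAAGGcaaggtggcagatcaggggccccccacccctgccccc
Chrna1: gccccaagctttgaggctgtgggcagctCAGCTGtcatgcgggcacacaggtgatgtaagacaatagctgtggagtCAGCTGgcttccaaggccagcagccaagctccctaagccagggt

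Of 14 myogenic regulators measured, which act upstream of the sarcomere genes, 6 were expressed at lower levels in C2C12-pMirn378 cells, 0 at higher levels and 8 were not called, with a median log2 ratio of -0.53. *Myog*, which drives terminal differentiation, measured 761.2, 833.9 and 696.9 in C2C12-pMirn378 arrays and 1353, 1448 and 1533 in C2C12-pMirn0 arrays, a log2 ratio of -0.92 ± 0.08 (SE, adjusted p = 2.89e-08). *Myf5*, the factor of early myoblasts, measured 3174, 3513 and 3179 in C2C12-pMirn378 arrays and 5676, 5650 and 5602 in C2C12-pMirn0 arrays, and *Myod1* had AEVs of 1061 and 1636. In each of them the arrays of both lines stood apart.

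*Mef2c*, a cofactor of the myogenic factors, had a log2 ratio of -0.66, and 4 of its 5 probe sets were called lower. *Smyd1*, a methyltransferase needed for sarcomere assembly, averaged 54.32 and 163.1, and *Rbm24*, a splicing factor of striated muscle, 141.5 and 296.6 in C2C12-pMirn378 and C2C12-pMirn0 cells. *Mef2a* and *Mef2d*, which are widely expressed, had log2 ratios of 0.06 and 0.19 and were not called, nor was *Pax7*, the satellite cell factor, at -0.09.

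Genes for excitation and calcium handling moved less evenly. Of 20 measured, 4 were lower, 1 was higher and 17 had a log2 ratio below 0. The calsequestrins *Casq2* and *Casq1*, which store calcium in the sarcoplasmic reticulum, had log2 ratios of -1.00 and -0.65, and *Ryr1*, the release channel, -1.23. The call of *Casq1* was lost without C2C12-pMirn378 replicate 1, where its log2 ratio was -0.60. *Cacna1s*, the voltage sensor, was called lower but was dim. With only the 12 BMP2-treated arrays in the fit, an alternative chosen after seeing the data, the list held 2 lower calls in place of 4, and *Ryr1* was lost (adjusted p = 0.00906). *Chrna1*, the alpha subunit of the acetylcholine receptor, went the other way, with 8888, 8179 and 8342 in C2C12-pMirn378 arrays against 3978, 4398 and 4375 in C2C12-pMirn0 arrays (log2 ratio 1.00, adjusted p = 2.78e-08). *Chrng*, its fetal gamma subunit, had AEVs of 107.4 and 132.5 and was not called on this probe set, while 1 of its 3 probe sets was called lower.

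Of 18 genes of myoblast fusion and the muscle membrane, 4 were lower and 0 higher. They were *Mymk*, the fusion protein myomaker (AEVs 167.6 and 376.2, log2 ratio -1.20), *Cav3*, the caveolin of muscle (-1.65), *Mb*, myoglobin (-0.75), and *Cdh15*, M-cadherin (-0.66). With only the 12 BMP2-treated arrays the list held 1 call, and *Mymk*, *Mb* and *Cdh15* were lost (adjusted p = 0.0147, 0.00632 and 0.0347). The call of *Cdh15* was also lost without C2C12-pMirn0 replicate 2 or C2C12-pMirn378 replicate 1, with an adjusted p of up to 0.00954. Among 11 smooth muscle contractile genes, which striated muscle precursors also express, *Tagln* (log2 ratio 0.60) and *Smtn* (0.68) were called higher and 0 lower. *Tagln* was at 0.58 to 0.62 when 1 array was left out and lost its call without C2C12-pMirn0 replicate 1 or C2C12-pMirn378 replicate 1, and *Smtn* lost its call without any single array but C2C12-pMirn378 replicate 2, with adjusted p-values of up to 0.0184.

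**Figure D2:**
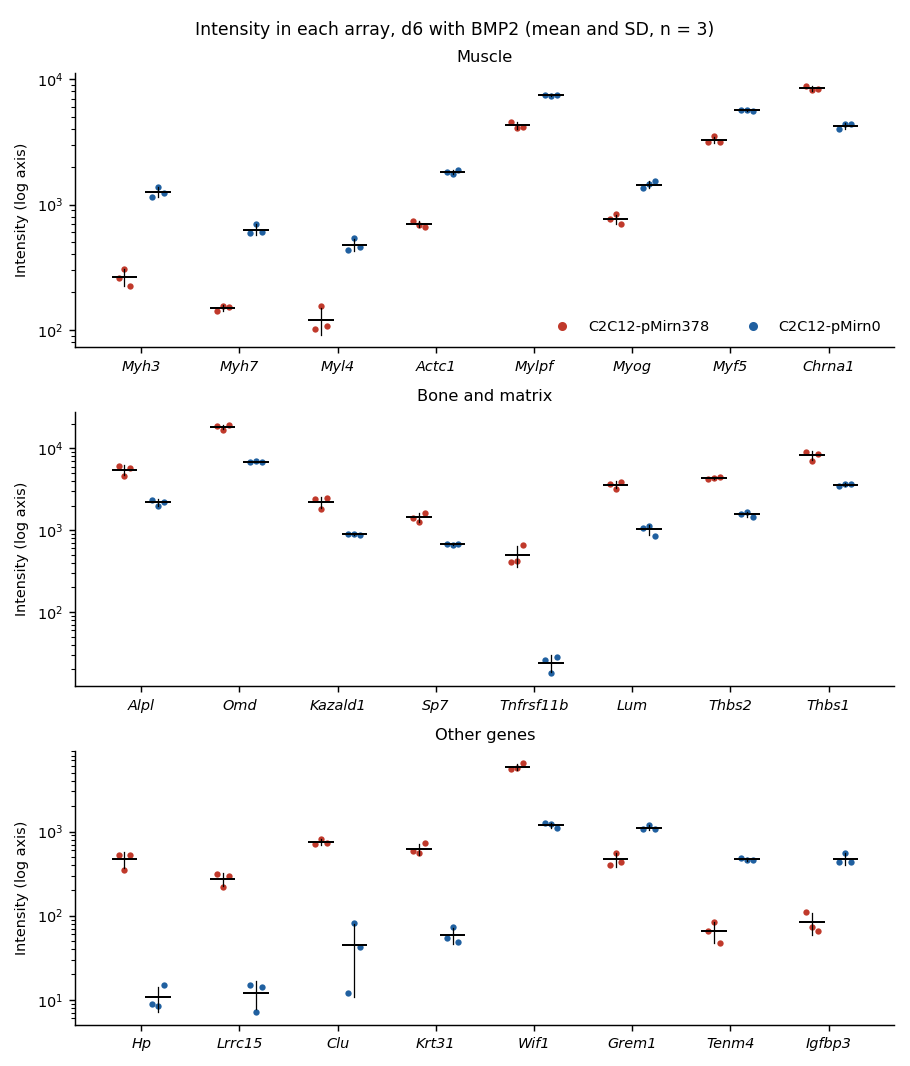
Intensity on a log axis (y) in each of the 3 C2C12-pMirn378 arrays (red, left) and 3 C2C12-pMirn0 arrays (blue, right) at d6 with BMP2 for 24 genes (x), with a bar for the mean and a line for the SD. No gene shown has overlapping arrays, and *Chrna1* is the muscle gene in the top panel with the higher values in C2C12-pMirn378 cells.

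On the osteogenic side the calls were fewer, and each of those in bone matrix was a rise. *Alpl*, the alkaline phosphatase that frees phosphate for mineral, measured 6079, 4579 and 5847 in C2C12-pMirn378 arrays against 2369, 1983 and 2221 in C2C12-pMirn0 arrays, with a log2 ratio of 1.32 ± 0.21 (SE, adjusted p = 0.000173). *Omd*, the bone proteoglycan osteomodulin, measured 19000, 17060 and 19230 in C2C12-pMirn378 arrays and 6891, 7092 and 6789 in C2C12-pMirn0 arrays. *Kazald1*, a secreted protein of osteoblasts, measured 2387, 1844 and 2489 in C2C12-pMirn378 arrays and 905.9, 897.3 and 869.9 in C2C12-pMirn0 arrays. The lowest C2C12-pMirn378 array was well above the highest C2C12-pMirn0 array in all 3 genes. The log2 ratios of *Omd* and *Kazald1* were 1.41 and 1.32 (adjusted p = 1.65e-06 and 5.35e-07).

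*Col1a1*, the main collagen chain of bone, was called on its brighter probe set with AEVs of 4037 and 2101 (log2 ratio 0.94, adjusted p = 1.44e-05). A second probe set of *Col1a1* had 2753, 2305 and 3040 in C2C12-pMirn378 arrays against 1615, 1603 and 1563 in C2C12-pMirn0 arrays, which do not overlap either, but an adjusted p of 0.155. These 4 rises stood in a list of 18 measured genes with 0 falls and a median log2 ratio of 0.08. *Col1a2* (24520 and 23820), *Sparc* (29760 and 30090) and *Ogn* (24850 and 25530), abundant matrix genes near the upper end of the intensities, were not called, and *Ibsp*, bone sialoprotein, had AEVs of 41.18 and 42.9. *Bglap*, *Spp1*, *Enpp1* and *Phospho1*, also written into the list, were not analysed here, and 7 of the 18 measured genes were dim.

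Of 14 osteoblast transcription factors, 1 was higher and 2 were lower, and *Runx2* and *Tcf7* were not analysed here. *Sp7*, osterix, measured 1429, 1261 and 1650 in C2C12-pMirn378 arrays and 685.1, 666.4 and 683.9 in C2C12-pMirn0 arrays, a log2 ratio of 1.08 (adjusted p = 0.00106). *Dlx5*, a homeobox factor upstream of osterix, measured 140.3, 124.5 and 180.7 in C2C12-pMirn378 arrays and 49.55, 35.74 and 56.33 in C2C12-pMirn0 arrays. Its arrays did not overlap and its log2 ratio was 1.66, but the adjusted p was 0.184. With values under 50 set to 50, *Dlx5* was called at 1.5 (adjusted p = 1.19e-08). This floor also removes the spread among values under 50 in all groups of the fit, so that call is not added support.

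*Hey1*, a Notch and BMP target, and *Lef1*, the nuclear partner of beta-catenin, were lower with log2 ratios of -0.61 and -0.95. *Sp7* lost its call without C2C12-pMirn378 replicate 1 or 3 or without any C2C12-pMirn0 replicate (adjusted p up to 0.01) and kept it without C2C12-pMirn378 replicate 2 (0.00179). *Hey1* lost its call without any array but C2C12-pMirn378 replicate 1 (adjusted p up to 0.00976) and *Lef1* without any of the 6 (adjusted p 0.00877 to 0.0297).

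Among 15 receptors for bone hormones and growth factors, 4 were higher and 0 lower. *Tnfrsf11b*, osteoprotegerin, the decoy receptor that restrains osteoclasts, measured 405.7, 421.7 and 667.5 in C2C12-pMirn378 arrays against 26.18, 17.78 and 28.35 in C2C12-pMirn0 arrays, where it was under the median of all values. Its log2 ratio of 4.36 ± 0.49 (SE, adjusted p = 2.69e-06) became 3.28, still called, with values under 50 set to 50. *Vdr*, the vitamin D receptor, was called on both of its probe sets (log2 ratios 0.67 and 0.86). *Fgfr1* (0.61) and *Fgfr3* (0.68) are receptors for fibroblast growth factors, and *Pdgfra*, a platelet-derived growth factor receptor, had 2048, 1631 and 1981 in C2C12-pMirn378 arrays against 1192, 1055 and 1180 in C2C12-pMirn0 arrays without a call (adjusted p = 0.0489). Without C2C12-pMirn0 replicate 1 the list held 1 call in place of 4. *Fgfr1* was also lost without C2C12-pMirn378 replicate 1 or 3, *Fgfr3* without these or C2C12-pMirn0 replicate 2, and the representative probe set of *Vdr* without C2C12-pMirn378 replicate 1. With only the 12 BMP2-treated arrays, *Pdgfra* was called higher (adjusted p = 0.00351, limma). In that fit *Fgfr1* and *Fgfr3* lost their calls (0.0119 and 0.00651).

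**Figure D3:**
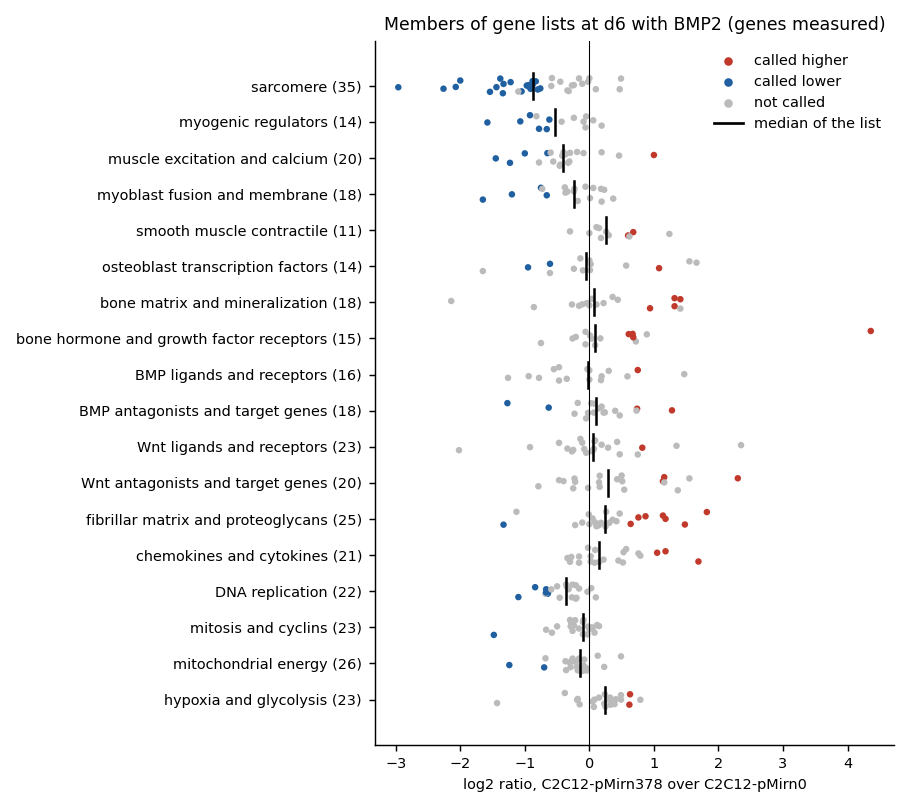
Each point is 1 gene of a list, placed by its log2 ratio of C2C12-pMirn378 over C2C12-pMirn0 at d6 with BMP2 (x axis), with the number of genes measured after the name of the list. Red and blue mark the genes called higher and lower, grey those not called, and the black line is the median, which was -0.88 for the sarcomere list and 0.08 for bone matrix.

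Of 16 BMP ligands and receptors, *Bmp1*, a procollagen protease in spite of its name, was the single call (log2 ratio 0.75). Of 18 antagonists and target genes of BMP, 2 were higher and 2 lower. *Grem1*, gremlin, which traps BMPs outside the cell, measured 403.3, 561.1 and 434.1 in C2C12-pMirn378 arrays and 1062, 1197 and 1073 in C2C12-pMirn0 arrays (log2 ratio -1.27, adjusted p = 4.49e-07). *Fst*, follistatin, which binds activins and some BMPs, measured 1918, 1620 and 1926 in C2C12-pMirn378 arrays and 1037, 1115 and 1113 in C2C12-pMirn0 arrays. The 2 antagonists thus stood on opposite sides.

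*Bambi*, a decoy receptor, was higher (log2 ratio 1.28), and *Id2*, an inhibitor of myogenic factors that BMP induces, was lower (-0.63). The call of *Bambi* was lost without C2C12-pMirn378 replicate 1 or 3 or any C2C12-pMirn0 replicate (adjusted p up to 0.0251), and that of *Id2* without C2C12-pMirn378 replicate 1 or C2C12-pMirn0 replicate 1 (log2 ratio to -0.58). *Inhbb*, a subunit of activin B, averaged 1614 and 753 in C2C12-pMirn378 and C2C12-pMirn0 cells (log2 ratio 1.09).

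Of 20 Wnt antagonists and target genes, 3 were higher and 0 lower, and of 23 Wnt ligands and receptors, 1 was higher. *Wif1*, a secreted Wnt inhibitor of mature osteoblasts, measured 5483, 5755 and 6454 in C2C12-pMirn378 arrays against 1266, 1215 and 1104 in C2C12-pMirn0 arrays. Its log2 ratio of 2.30 had an adjusted p of 0.00499, just inside the limit. With only the 12 BMP2-treated arrays in the fit the adjusted p was 3.37e-05, and the 2 Wnt lists held 5 and 3 higher calls in place of 3 and 1. In the fit of all arrays the call was lost without any single array (adjusted p 0.0161 to 0.0232).

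*Sfrp2*, which sequesters Wnt proteins, measured 7547, 6007 and 7297 in C2C12-pMirn378 cells and 3185, 3004 and 3251 in C2C12-pMirn0 cells. *Lgr6*, a receptor for R-spondins, had log2 ratio 1.16, and *Fzd1*, a Wnt receptor, 0.82. *Wnt5a*, a ligand of non-canonical signaling, measured 29.32, 55.49 and 39.73 in C2C12-pMirn378 arrays and 199.9, 183.6 and 118.5 in C2C12-pMirn0 arrays, without overlap, and missed the call at an adjusted p of 0.00581. It was called lower without dim probe sets, with array weights, with an offset of 16 and with a floor of 50. Of its 4 probe sets, 1 was called lower.

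Of 25 matrix genes outside the bone list, 7 were called higher, 1 lower and 17 were not called, with a median log2 ratio of 0.26. *Thbs2* and *Thbs1*, thrombospondins that bind cells and growth factors, showed little spread. *Thbs2* measured 4254, 4381 and 4534 in C2C12-pMirn378 arrays against 1594, 1677 and 1463 in C2C12-pMirn0 arrays, a log2 ratio of 1.48 (adjusted p = 4.26e-10). *Lum*, the small proteoglycan lumican, averaged 3610 ± 362 and 1025 ± 150 (log2 ratio 1.82). *Postn*, periostin (19880 and 10890), *Lox*, which crosslinks collagen (16140 and 9552), and *Col8a1* (657.7 and 298.5) were also higher. *Col18a1*, a basement membrane collagen, was the fall, with 537.9, 529.2 and 533.8 in C2C12-pMirn378 arrays and 1338, 1321 and 1356 in C2C12-pMirn0 arrays. *Col3a1*, *Fn1* and *Col6a2* had log2 ratios of -0.11, -0.01 and 0.00.

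Several of the largest rises, that of *Tnfrsf11b* among them, were in genes with values under the median of all values in C2C12-pMirn0 cells. *Hp*, haptoglobin, a plasma protein that binds hemoglobin, measured 525.8, 348.5 and 524.3 in C2C12-pMirn378 arrays and 8.81, 8.42 and 14.8 in C2C12-pMirn0 arrays, a log2 ratio of 5.47 ± 0.58 (SE, adjusted p = 1.06e-06). *Lrrc15*, a membrane protein of stromal cells and osteoblasts, measured 311.5, 221.6 and 295.1 in C2C12-pMirn378 arrays and 15, 7.11 and 14.3 in C2C12-pMirn0 arrays. *Clu*, the secreted chaperone clusterin, measured 702.6, 822 and 722.6 in C2C12-pMirn378 arrays and 11.9, 80.8 and 42.95 in C2C12-pMirn0 arrays. The arrays of the lines stood far apart in each, and most C2C12-pMirn0 values lay under the median of all values. The log2 ratios of *Hp*, *Lrrc15* and *Clu* were 5.47, 4.57 and 4.43. With values under 50 set to 50 they were 3.20, 2.45 and 3.67, each still called. The floor removes spread too, so the calls kept with it are not added support.

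*Krt31*, a hair keratin, measured 586.2, 553.1 and 731.2 in C2C12-pMirn378 arrays and 54.08, 72.76 and 49.23 in C2C12-pMirn0 arrays (log2 ratio 3.42, adjusted p = 2.31e-10). *Aldh1a3*, which makes retinoic acid, had log2 ratio 2.75 and *Aldh3a1*, another aldehyde dehydrogenase, 2.10. *Plb1*, a phospholipase, had AEVs of 4971 and 1025 (log2 ratio 2.28), and its call, like that of *Wif1*, was lost without any single array (adjusted p 0.0148 to 0.0231). *Serping1*, the inhibitor of complement C1, averaged 2176 and 521.7, and *Ifitm1*, an interferon-induced membrane protein, 864.9 and 184.5. Among 14 acute phase and complement genes, *Hp* and *Serping1* were the 2 calls, and among 21 chemokines and cytokines *Ccl9*, *Cxcl12* and *Il33* were higher (log2 ratios 1.69, 1.18 and 1.05) and 0 lower. *Slurp1*, *Glt8d2* and *Flywch2* completed the genes with the largest rises together with *Casp9*, whose initiator caspase acts in apoptosis. *Casp9* was called on 1 of its 3 probe sets (log2 ratio 1.96), the brightest of them gave 0.10, and the call was lost without any array but C2C12-pMirn378 replicate 1. The call of *Flywch2* was lost with only the 12 BMP2-treated arrays (adjusted p = 0.0162).

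The largest falls outside muscle genes included cell surface and signaling proteins. *Tenm4*, a teneurin that guides cell contacts, measured 66.51, 83.08 and 46.97 in C2C12-pMirn378 arrays and 488.1, 460.8 and 457.6 in C2C12-pMirn0 arrays, a log2 ratio of -2.88 ± 0.29 (SE, adjusted p = 5.53e-07). *Igfbp3*, an IGF-binding protein, measured 111.5, 72.94 and 66.35 in C2C12-pMirn378 arrays and 430.8, 563.3 and 439.6 in C2C12-pMirn0 arrays. *Cdh11*, the cadherin of osteoblasts and mesenchyme, measured 432.9, 490.5 and 537.3 in C2C12-pMirn378 arrays and 1848, 1769 and 1693 in C2C12-pMirn0 arrays (log2 ratio -1.87). The fall of this osteoblast cadherin stood beside the rises of *Alpl* and *Omd*.

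*Chchd10*, a protein of the mitochondrial intermembrane space, fell to 209.5, 251.1 and 256.9 in C2C12-pMirn378 arrays, against 1214, 1338 and 1243 in C2C12-pMirn0 arrays. *Lpar4*, a lysophosphatidic acid receptor, had a log2 ratio of -2.29, *Clec2d*, a lectin, -2.08, *Lin7a*, a scaffold protein, -2.41, and *Avil*, an actin-severing protein, -2.50. *Trim54* and *Itgb1bp2*, both muscle proteins, had -2.0 and -1.76, and *Dscc1*, a loader of the replication clamp, -1.85. The calls of *Trim54* and *Itgb1bp2* were lost with only the 12 BMP2-treated arrays (adjusted p = 0.0251 and 0.0659), that of *Avil* without any array but C2C12-pMirn378 replicate 2 (adjusted p up to 0.016), and that of *Tmem74*, a membrane protein at -2.30, without C2C12-pMirn0 replicate 1 or C2C12-pMirn378 replicate 2 (adjusted p up to 0.00622) or with the 12 arrays (0.0198). With values under 50 set to 50, the log2 ratios of *Tmem74*, *Trim54* and *Itgb1bp2* were -0.85, -1.09 and -1.20, each still called.

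Of 22 DNA replication genes, 6 were lower, 0 higher and 16 not called, and 20 had a log2 ratio below 0. *Cdt1*, a licensing factor, measured 1666, 2084 and 1483 in C2C12-pMirn378 arrays and 2942, 3387 and 2955 in C2C12-pMirn0 arrays, and *Mcm5*, *Mcm7* and *Mcm3*, subunits of the replicative helicase, had log2 ratios of -1.10, -0.65 and -0.64. The last 2 lost their calls without C2C12-pMirn378 replicate 3, and with only the 12 BMP2-treated arrays the list held 1 call in place of 6. Of 23 mitosis genes and cyclins, *Kif23*, dim in both lines, was the single call (lower), 17 had a log2 ratio below 0, and the median was -0.11. Its call was lost without C2C12-pMirn378 replicate 2 or 3 or C2C12-pMirn0 replicate 2 or 3 (adjusted p up to 0.0351). *Kif23* had a log2 ratio of -0.36 and an adjusted p of 0.567 with values under 50 set to 50. *Ccnd2*, a D-type cyclin, was lower (-0.86, 6 of 7 probe sets called), and *Gadd45b*, a stress gene that restrains the cell cycle, was higher (0.86).

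In the energy lists few genes reached the limits. *Ppargc1b*, the host gene of *miR-378*, measured 165, 180.4 and 167.8 in C2C12-pMirn378 arrays against 269, 305.4 and 259.4 in C2C12-pMirn0 arrays (log2 ratio -0.70, adjusted p = 0.00153). Without C2C12-pMirn378 replicate 1 or 3, or C2C12-pMirn0 replicate 1 or 2, its call was lost (adjusted p up to 0.0134). *Cox6a2*, the muscle form of a cytochrome oxidase subunit, averaged 887.1 and 2082 (log2 ratio -1.24). They were the 2 calls among 26 mitochondrial genes, of which 23 had a log2 ratio below 0, with a median of -0.14. Of 23 hypoxia and glycolysis genes, 18 had a log2 ratio above 0 (median 0.25), and *Slc2a1*, a glucose transporter (0.63), and *Pdk1*, which holds pyruvate back from mitochondria (0.62), were called higher. With only the 12 BMP2-treated arrays, *Ppargc1b*, *Slc2a1* and *Pdk1* lost their calls (adjusted p = 0.069, 0.0156 and 0.0379). *Slc2a1* also lost its call without C2C12-pMirn0 replicate 3 or C2C12-pMirn378 replicate 3 (log2 ratio to 0.57), and *Pdk1* without any array but C2C12-pMirn378 replicate 1.

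Genes that other studies have reported as targets of *miR-378* were not lower as a list. Of 18 measured, 0 were called lower and 2 higher, 9 had a log2 ratio below 0, and the median was -0.01, against -0.02 for all genes. The 2 were *Npnt*, nephronectin, a matrix ligand of integrins, with 4918, 4215 and 4831 in C2C12-pMirn378 arrays against 2952, 2752 and 2942 in C2C12-pMirn0 arrays (log2 ratio 0.69), and *Pdk1*. *Wnt10a*, which also is in that list, measured 189, 213 and 199.1 in C2C12-pMirn378 arrays and 217.5, 368.2 and 265.3 in C2C12-pMirn0 arrays (adjusted p = 0.105). *Msc*, the myogenic repressor MyoR, was dim with AEVs of 12.74 and 13.27.

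Most endothelial, leukocyte, neural and cartilage markers were dim, and most adipocyte genes were not. Of 10 endothelial markers, 0 were called and 1 was not dim, with a summed intensity of 237 to 358 in C2C12-pMirn378 and 285 to 363 in C2C12-pMirn0 arrays. Of 10 leukocyte markers, *Cd14* was called higher (log2 ratio 0.62) and 3 were not dim, with sums of 1141 to 1215 and 931 to 1031. The call of *Cd14* was lost without C2C12-pMirn378 replicate 1 or 3 (log2 ratio to 0.59). *Gap43* and *Map2* were lower and *Tubb3* higher among 10 neural markers, of which 4 were not dim, and the sums of 7283 to 8095 and 7288 to 7643 overlapped. Among 15 cartilage genes 0 were called and 4 were not dim. Among 17 adipocyte genes, 13 of them not dim, *Cd36*, a fatty acid transporter, was called lower (log2 ratio -1.46). The part of other cell types in the differences was not tested.

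The same lines differed more at d3 with BMP2, with 728 probe sets (1.61%) higher and 660 (1.46%) lower in C2C12-pMirn378 cells, and hardly at d6 without BMP2, with 48 (0.106%) and 24 (0.0532%). Of the 448 probe sets higher at d6 with BMP2, 169 were also higher at d3 (37.7% of the d6 calls and 23.2% of the d3 calls). Of the 377 lower ones, 167 were also lower at d3 (44.3% and 25.3%), and 6 and 14 were called in opposite directions. With the untreated cells of d6 the overlap was 8 higher and 3 lower probe sets, and 3 and 7 were called in opposite directions. These comparisons contrast different arrays but share the spread estimated from all 30 arrays, so their calls are not independent.

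*Alpl* averaged 48.2, 3667 and 5502 at d0, d3 and d6 with BMP2 in C2C12-pMirn378 cells, against 60.69, 2360 and 2191 in C2C12-pMirn0 cells. *Sp7* peaked at d3 in both lines, at 2739 in C2C12-pMirn378 and 1090 in C2C12-pMirn0 cells. *Hp* averaged 172.2 at d3 in C2C12-pMirn378 and 92.32 in C2C12-pMirn0 cells, and differed more at d6, as given above. *Myh3* averaged 2432, 1168 and 264.7 over the 3 days in C2C12-pMirn378 cells and 3402, 2413 and 1258 in C2C12-pMirn0 cells, falling over time in both. At d6 without BMP2 its AEVs were 16040 ± 1980 and 19290 ± 1390, so that its levels with BMP2 lay far under those without it in both lines.

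**Figure D4:**
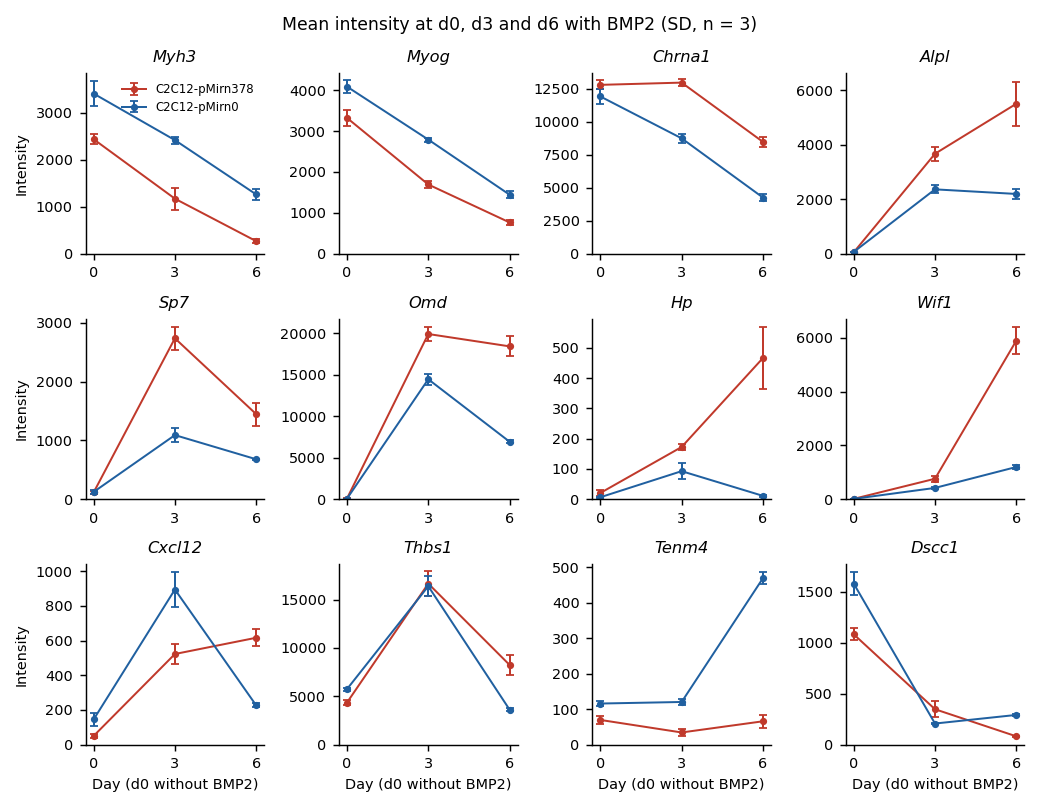
Mean intensity with SD (y, linear axes from 0, n = 3) of 12 genes before treatment and after 3 and 6 days of BMP2 (x) in C2C12-pMirn378 (red) and C2C12-pMirn0 cells (blue). *Myh3* and *Myog* decline in both lines, *Alpl*, *Hp* and *Wif1* part most at d6, and the lines cross between d3 and d6 for *Cxcl12* and *Dscc1*.

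Whether the difference between the lines depended on BMP2 or on the day was tested as an interaction over the same 30 arrays. Both tests use the arrays of d6 with BMP2, so their values are not independent of the difference described above. Against the difference in untreated cells at d6, 265 probe sets (0.588%) had a higher and 310 (0.687%) a lower log2 ratio with BMP2. Among sarcomere genes 15 of 35 were called lower in this test and 1 higher. For *Myh3* the interaction was -1.99 (adjusted p = 3.32e-07), and for *Chrna1* it was 1.14 (1.76e-06). *Fst* was lower in untreated C2C12-pMirn378 cells (log2 ratio -0.70) and higher with BMP2, an interaction of 1.44 (3.1e-08).

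Against the difference at d3 with BMP2, 230 probe sets (0.51%) had a higher and 349 (0.774%) a lower log2 ratio at d6. Of the 23 mitosis genes and cyclins, 22 were higher in C2C12-pMirn378 cells at d3 (median log2 ratio 1.97) and 22 were called lower in this test. For the unfolded protein and amino acid stress list, 12 of 22 genes were lower at d3 and 0 were called at d6, and 9 were higher in this test. Sarcomere genes had 7 calls, all lower, at d3 and 20 at d6, and 8 were lower in the test between the days.

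**Figure D5:**
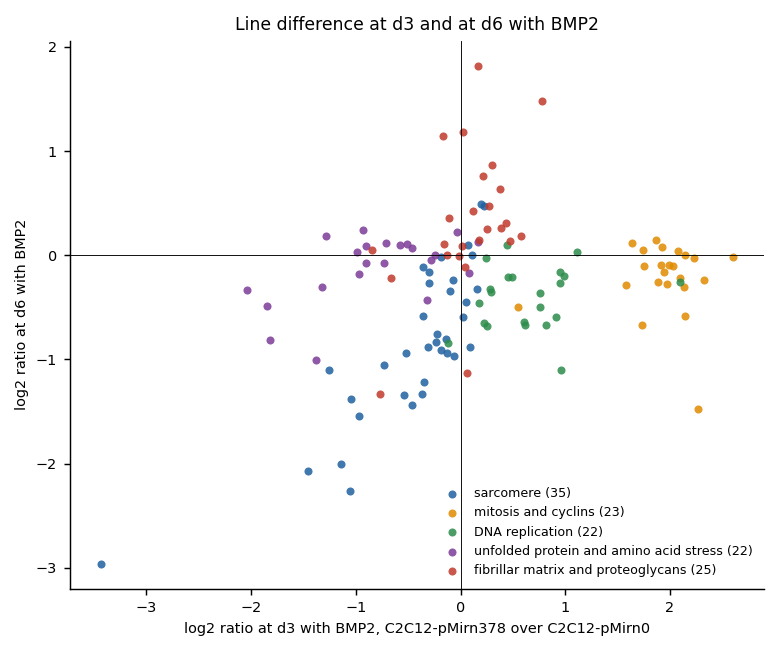
The log2 ratio of C2C12-pMirn378 over C2C12-pMirn0 at d6 with BMP2 (y) against the same ratio at d3 with BMP2 (x) for the genes of 5 lists. Mitosis genes lie far right with a median of 1.97 at d3 and -0.11 at d6, and sarcomere genes lie lower on the y axis (median -0.88) than their d3 median of -0.30.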

How the data were processed

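RNA was measured on Affymetrix GeneChip mouse arrays. Per the labels and methods, the authors summarised probe sets by RMA in R 2.4.1 and normalized by quantiles. What they deposited is a table of linear intensities. It holds no detection calls. The array medians, between 68.04 and 82.66 over all 30 arrays, are not equal. Whether the deposited values are the RMA output that the methods describe was not tested. Of the per-sample value columns, 0 were left unused. Arrays were grouped by label. Which line carried the *miR-378* insert was taken from the line names and the methods, since the design text lists lines and constructs in different orders. No count depth exists for arrays, and 3 per group limit the precision. The log2 values, with no offset, were fitted with limma 3.58.1 in R 4.3.3 (lmFit, contrasts, eBayes) over 10 group means, with 1.2 prior degrees of freedom. The script was tested on simulated data. Python 3.11.15 made the summaries. Of the probe sets, 34958 carried 1 gene symbol in the platform annotation, 932 several and 9211 none, and only the first kind was named.

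Genes were named by a rule: those the study names, read from its probe sets, the 15 largest rises and 15 largest falls and 6 and 6 per interaction among called, not dim probe sets without overlap (no _x_at), and the strongest calls of each list. Further list members were named after their values were seen. The comparison, the rule and the lists, written from general knowledge, were chosen with earlier results of these data known. Alternatives were a replicate block, fits of fewer arrays, a filter on dim probe sets, trend and robust estimation, array weights, 2 scalings, an offset of 16, a floor of 50, other probe sets and leaving out each array. Mature miRNA sequence is not shown here.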

Additional observations from a re-analysis of the deposited data

Results flagged for a closer look

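The difference between the lines at d6 with BMP2 differed from that in other conditions by the interaction tests of limma (adjusted p under 0.005 and a log2 difference above 0.6 or below -0.6). Against untreated cells at d6, 265 probe sets were higher and 310 lower. Against d3 with BMP2, 230 were higher and 349 lower. For *Hp* the log2 ratio was 5.87 above that of untreated cells and 4.53 above that of d3.

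With BMP2 against untreated cells at d6, the interaction was 5.17 for *Tmie*, 4.41 for *Lrrc15*, 3.70 for *Krt31*, 3.48 for *Casp9* and 3.46 for *Aldh1a3*. It was -3.89 for *Avil*, -3.20 for *Car8*, -3.02 for *Tenm4*, -2.96 for *Lin7a*, -2.86 for *Igfbp3* and -2.63 for *Dscc1*. *Car8*, a carbonic anhydrase-related protein, averaged 375 ± 54.6 in C2C12-pMirn378 and 103.8 ± 13.6 in C2C12-pMirn0 cells without BMP2, against 205.7 ± 12.5 and 525.1 ± 6.22 with BMP2. *Tmie* itself missed the call at d6 with BMP2 (log2 ratio 3.19, adjusted p = 0.00522). It was called in 6 of 15 alternatives, and its log2 ratio was 1.0 with values under 50 set to 50.

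Between d6 and d3 with BMP2, the interaction was 3.18 for *Car6*, 2.22 for *Cxcl12*, 2.09 for *Egr3*, 1.88 for *Egr2* and 1.85 for *Cdsn*. It was -2.76 for *Gas2l3*, -2.72 for *Bub1b*, -2.64 for *Cdca8*, -2.58 for *Dscc1*, -2.51 for *Depdc1a* and -2.40 for *Ect2*. *Car6*, a secreted carbonic anhydrase, averaged 111.4 ± 27.4 at d3 and 3625 ± 947 at d6 in C2C12-pMirn378 cells, and 2493 ± 147 at d3 and 8942 at d6 in C2C12-pMirn0 cells. *Cxcl12*, a chemokine of stromal cells, was lower at d3 (522.4 ± 54.9 in C2C12-pMirn378 and 894.5 ± 98.5 in C2C12-pMirn0 cells) and higher at d6 (616.1 ± 48.2 and 225.9 ± 11). At d6, 2 of its 3 probe sets were called higher. The log2 ratio was 1.45 for the probe set of these values and 1.18 for the brighter one given with the chemokines. *Egr3*, an immediate early gene, averaged 257.4 ± 38 and 578.1 ± 38.4 at d3, and 1271 ± 51.4 and 672.3 ± 39.4 at d6. *Dscc1* was higher at d3 (log2 ratio 0.72) and lower at d6 (-1.85).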

How the results depend on the processing

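When a fit held just the groups being compared, 0 probe sets were lower and 0 higher at d6 with BMP2 (7080 at an unadjusted p under 0.05), 51 lower and 42 higher in the interaction with BMP2, and 130 lower and 62 higher in that with the day. With only the 12 BMP2-treated arrays, added after seeing the data, 241 were lower and 358 higher at d6. With values under 50 set to 50, the interactions with BMP2 and the day held 472 and 350 higher probe sets. This floor removes the spread among values under 50 in every group, so calls kept or gained with it are not added support. Without 1 array at a time, the calls at d6 numbered 323 to 384 (lower) and 340 to 478 (higher), with 233 to 302 and 199 to 270 in the interaction with BMP2, and 277 to 346 and 179 to 247 in that with the day. The other counts over all probe sets stayed within 1.5 times. Calls in gene lists moved more. With the 12 arrays the lower calls were 1 in place of 6 for DNA replication, 1 in place of 4 for myoblast fusion and 2 in place of 4 for muscle excitation, and the higher calls 0 in place of 2 for hypoxia. Without C2C12-pMirn0 replicate 1, osteoblast factors held 0 lower calls in place of 2, smooth muscle 0 higher in place of 2 and bone receptors 1 higher in place of 4. With a replicate block, 382 were lower and 451 higher at d6. At d6 with BMP2, deviations of arrays with the same number correlated at -0.07, 0.06 and -0.004, and those with different numbers at -0.09 to 0.097. Such values from 3 arrays per group cannot tell whether arrays with the same number shared an experiment. Of 105 called probe sets that the naming rule gave, 67 kept their call in every alternative fit except that of 6 arrays. The other 38 were lost in 1 or more, 25 of them with the 12 arrays, and 0 changed sign. Other probe sets of the same gene were not part of this count. Nor were list members named after their values were seen, such as *Acta1*, *Mylpf*, *Myod1*, *Lum*, *Postn* and *Lox*. Probe sets under the median of all values had a median SD of 0.584 in C2C12-pMirn378 and 0.565 in C2C12-pMirn0 arrays (log2), so that differences there were harder to detect.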
